A study of Rattus norvegicus with 6 samples.

Results

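The liver genes of the urea cycle and of amino acid breakdown were examined in rats made hypercholesterolemic by diet. A list of 40 genes was taken, and every probe set whose platform annotation gave exactly 1 gene symbol from that list was a member. All 40 genes were present, with 55 probe sets, among 14217 genes with 20826 such probe sets in the table. Liver gene expression was measured on 1-colour Affymetrix arrays with total RNA from 6 liver samples, 3 per group. All rats first ate fat-rich food for 30 d and stayed on it for another 30 d, during which each rat received 1 ml of saline a day by gavage. In the probiotic group the saline carried Lactobacillus casei Zhang, a lactic acid bacterium, and in the high-fat control group it carried nothing. The sources used here name no strain, sex or age, and both groups were hypercholesterolemic, so no rats on a normal diet are part of the comparison. The samples are described as drawn at random from the groups without a statement that each came from its own rat, and p-values therefore measure only the spread between these samples.

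The urea cycle turns toxic ammonia into urea in hepatocytes and starts in mitochondria, where Nags makes the activator of Cps1, Cps1 builds carbamoyl phosphate and Otc joins it to ornithine. Ass1, Asl and Arg1 complete the cycle in the cytosol, and the carriers Slc25a15 and Slc25a13 bring ornithine and aspartate across the mitochondrial membrane. Aminotransferases and dehydratases feed nitrogen into the cycle and pass carbon skeletons to glucose synthesis and the citric acid cycle. Many of these genes are known for their response to glucagon, glucocorticoids and protein intake, and most urea cycle enzymes are concentrated in periportal hepatocytes.

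Values are log2(intensity + 16) after quantile normalization, and a difference is probiotic minus high-fat on that scale. Probe sets differ in how brightly they bind, so levels were not compared between genes. Values are those of a gene's brightest probe set unless another is named. The trimmed mean intensity was 500.3 on every array, and the median intensity ranged from 90.4 to 147.2. For Actb, the log2 signal of the 3' control probe set exceeded that of the 5' one, a gap that grows as RNA is degraded, by 2.50 ± 0.459 (SD, n = 3) in probiotic and 1.84 ± 0.213 (SD, n = 3) in high-fat livers, with an exact two-sided permutation p of 0.1, the smallest that 3 against 3 allow. The Actb gap was largest in probiotic sample 2, at 3.01, and smallest in high-fat sample 2, at 1.59. These arrays were also at the opposite ends of the leading principal component. For Gapdh the gap was 1.14 ± 0.40 (SD, n = 3) in probiotic and 0.617 ± 0.154 (SD, n = 3) in high-fat livers. Its groups overlapped, with 0.711 in probiotic sample 1 and 0.794 in high-fat sample 3 (exact two-sided permutation p = 0.2). Hepatocyte markers were bright on every array, with all 11 measured markers above the signal filter and a summed intensity of 480893 to 843776 in the high-fat and 520281 to 589294 in the probiotic samples. Kupffer cell and macrophage markers were lower in the probiotic group for 10 of 10 measured genes (summed intensity 13336 to 16639, against 16340 to 21133), and neutrophil markers for 4 of 4 tested (563 to 770, against 1101 to 1427), with sums that include Csf3r and Cxcr2, which lay below the filter and differed by 1.25 and -0.82. Erythroid markers were higher for 4 of 4 (30413 to 53637, against 19862 to 26615). Their sums were mostly Hbb (28962 to 49053.1, against 18861.1 to 25009.1), and Bpgm and Slc4a1 had overlapping groups. All these sums are of deposited intensities, before quantile normalization. No measured marker was at 0, and the part of these cells or of RNA quality in the results was not tested. In whole liver, fewer cells of a type and less RNA per cell cannot be told apart.

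Of the 40 genes, 39 were bright enough to be tested, and none differed between the groups in the adjusted test. With limma and Benjamini-Hochberg adjustment over all 18625 probe sets tested, 0 of 51 member probe sets passed an adjusted p of 0.05, against 4 of all probe sets (0.0215%) and 0 of 10573 genes at their brightest probe set (0%). The members were split evenly by direction, with 19 genes higher and 20 lower in the probiotic group. Their median difference was -0.01, beside 0.01 over all genes tested. At an unadjusted p under 0.05 there were 3 genes, Oat and Agxt higher and Gcsh lower, or 7.69% of 39 beside 5.81% of all genes (2.75% higher and 3.05% lower). Over probe sets it was 4 of 51, beside 6.85% of all. In 3 genes the groups did not overlap, namely Agxt, Fah and Gcsh, which is also 7.69% beside 12.4% of all genes (5.93% higher and 6.42% lower). Both shares are near the background and are no result about the members.

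**Figure D1:**
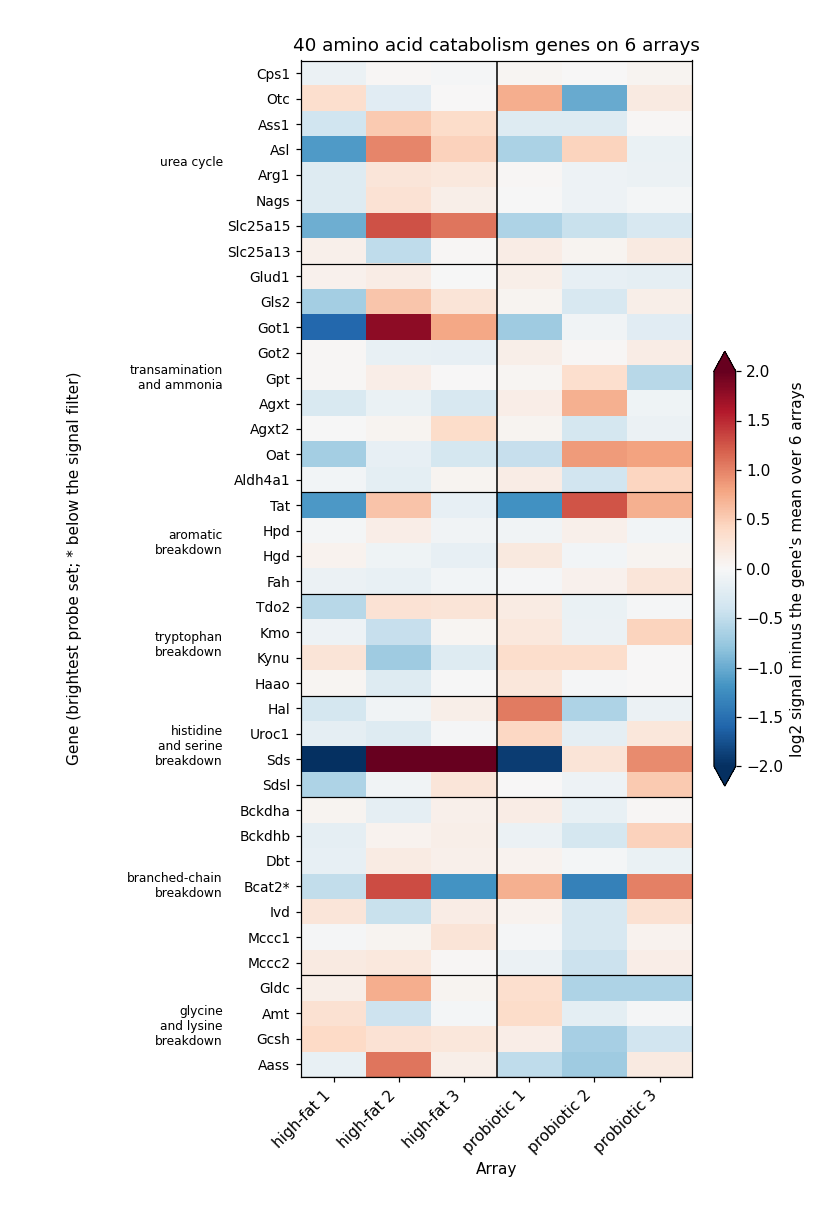
Each row is a gene at its brightest probe set and each column an array; colour is the log2 signal minus the gene's mean over the 6 arrays, with colours capped at 2 in either direction. Among the tested genes the darkest cells are those of Sds, Got1, Slc25a15, Asl and Tat, which vary between arrays of the same group (Bcat2, starred, was below the filter), while Cps1, Hpd and Fah are nearly white throughout.

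The urea cycle did not pass the test at any of its 8 genes, and its members differed in how evenly they were expressed. Of the 8 genes, 2 were higher and 6 lower, with a median difference of -0.11. At the brightest probe sets Cps1, the entry enzyme, was the steadiest after quantile normalization. Its deposited intensities ran from 36903.9 to 60553.1. It had log2 signals of 15.34, 15.48 and 15.44 in high-fat samples 1, 2 and 3 and of 15.49, 15.47 and 15.51 in probiotic samples 1, 2 and 3. The difference was 0.07 (SE 0.105, adjusted p = 0.89 with limma), and its sign turned to -0.05 with median centring and to -0.09 without normalization between arrays. The less bright of its probe sets gave -0.48, with 13.91 in probiotic sample 2 against 14.96 to 15.29 in the other 5 arrays. Otc, the ornithine transcarbamylase, had 13.91, 13.34 and 13.58 in the high-fat and 14.29, 12.57 and 13.76 in the probiotic samples. Its highest and lowest values both lay in the probiotic group, and the difference was -0.07 (SE 0.371, adjusted p = 0.974 with limma).

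The cytosolic enzymes shared a low value in high-fat sample 1. Ass1, which joins citrulline to aspartate, had 14.77, 15.69 and 15.53 in high-fat samples 1, 2 and 3 and 14.90, 14.91 and 15.20 in the probiotic samples. High-fat samples 2 and 3 were above every probiotic sample and sample 1 was below them all, so the groups overlapped, and the difference was -0.33 (SE 0.222, adjusted p = 0.759 with limma). Asl, which splits argininosuccinate, showed the same order with a wider spread. It had 11.95, 14.07 and 13.55 in the high-fat and 12.46, 13.54 and 12.96 in the probiotic samples, a difference of -0.20 (SE 0.48). The brightest Asl probe set has a suffix for probes shared between transcripts, and the other probe set gave -0.49. Arg1, which releases urea, had 15.04, 15.55 and 15.50 against 15.32, 15.20 and 15.18, a difference of -0.13 (SE 0.15). Its high-fat values thus enclosed all probiotic values. For Nags the difference was -0.10, with values of 11.09 to 11.64 in the high-fat and 11.25 to 11.34 in the probiotic samples.

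Slc25a15, the mitochondrial ornithine carrier, had the largest difference of the urea cycle and was measured by 5 probe sets above the filter. At the brightest, the log2 signal was 12.63, 14.87 and 14.68 in high-fat samples 1, 2 and 3 and 12.99, 13.16 and 13.28 in probiotic samples 1, 2 and 3. All probiotic samples lay between high-fat sample 1 and the other high-fat samples, and the difference was -0.91 (SE 0.487, adjusted p = 0.735 with limma). The other 4 tested probe sets had the same sign, at -0.48, -0.52, -0.58 and -1.72, and all 5 put high-fat samples 2 and 3 above every probiotic sample. The probe set with -1.72 had an unadjusted p of 0.0121 with limma and an adjusted p of 0.726. It differed from the rest in its probiotic values, of 12.01, 11.16 and 11.32, which put samples 2 and 3 below high-fat sample 1 at 11.89. A further probe set lay below the filter at 4.45 to 4.96. Slc25a13, the aspartate and glutamate carrier citrin, had a difference of 0.26 at its brightest probe set, with 12.92 to 13.53 in the high-fat and 13.48 to 13.60 in the probiotic samples, and of -0.34 at the other.

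**Figure D2:**
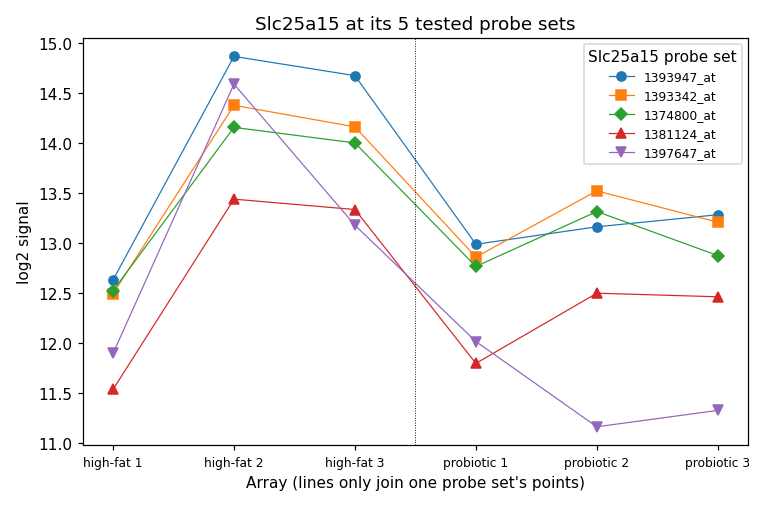
Log2 signal of Slc25a15 at each of its 5 tested probe sets (symbols) on the 6 arrays, joined by lines to mark the probe set. High-fat samples 2 and 3 are the highest at every probe set, high-fat sample 1 is the lowest at 4 of them, and the probe set with the difference of -1.72 departs from the others in probiotic samples 2 and 3.

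Among the genes of transamination and ammonia handling, 4 of 9 were higher and 5 lower, with a median difference of -0.09, and none passed the adjusted test. Oat, the ornithine aminotransferase, had 12.48, 12.98 and 12.80 in the high-fat and 12.68, 13.99 and 13.96 in the probiotic samples. Probiotic samples 2 and 3 were high, sample 1 lay within the high-fat range, and the difference was 0.79, or 1.73-fold (SE 0.324 on the log2 scale, adjusted p = 0.726 with limma). Agxt, the aminotransferase that removes glyoxylate, had 11.58, 11.76 and 11.57 against 12.02, 12.59 and 11.80. Every probiotic value was above every high-fat value, the nearest pair by a narrow margin, and the difference was 0.50 (SE 0.216, adjusted p = 0.726 with limma). The Actb gap was largest in probiotic sample 2, where each of these genes had its highest value. It was smallest in high-fat sample 2, the highest control for Oat and for Agxt. Without probiotic sample 2 the differences were 0.58 for Oat and 0.27 for Agxt. They were 0.24 and 0.15 once the Actb gap entered the model as a covariate. The Gapdh gap overlapped between the groups. The Actb gap was 2.11 to 3.01 in the probiotic and 1.59 to 1.96 in the high-fat samples, without overlap. An adjustment for it, here and below, therefore cannot tell RNA quality from treatment. Without probiotic sample 1 the difference of Oat was 1.22.

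Got1, the cytosolic aspartate aminotransferase, had one of the widest spreads of the members. Its values were 10.80, 14.15 and 13.14 in high-fat samples 1, 2 and 3 and 11.66, 12.30 and 12.13 in the probiotic samples, a difference of -0.67 (SE 0.676, adjusted p = 0.825 with limma). The mitochondrial form, Got2, had 14.16, 13.99 and 13.98 against 14.26, 14.16 and 14.30, a difference of 0.19, and its dim second probe set gave -0.13. The cytosolic and mitochondrial enzymes of this reaction thus differed in how much they varied within the control group, by 10.2-fold and 1.14-fold between the lowest and highest high-fat sample. Gls2, the liver glutaminase, had 11.93 to 13.16 in the high-fat and 12.29 to 12.73 in the probiotic samples, a difference of -0.09. Glud1, glutamate dehydrogenase, had -0.15 and 0.05 at its 2 probe sets. Gpt, alanine aminotransferase, had -0.11, the mitochondrial aminotransferase Agxt2 -0.28 and Aldh4a1, of proline breakdown, 0.13.

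Of the 4 genes of tyrosine breakdown, 3 were higher and 1 lower, with a median of 0.16. Tat, which opens the pathway, had 11.04, 12.76 and 12.03 in the high-fat and 10.98, 13.45 and 12.90 in the probiotic samples. Sample 1 was the lowest in each group, and the difference of 0.50 (SE 0.604, adjusted p = 0.858 with limma) was within that spread. It was -0.00242 when probiotic sample 2 was left out, 1.23 without probiotic sample 1 and -0.43 adjusted for the Actb gap. Fah, the last enzyme of the pathway, had 14.11, 14.07 and 14.18 against 14.21, 14.31 and 14.47. The groups did not overlap, but the margin was small and the difference was 0.21 (SE 0.127, adjusted p = 0.742 with limma). Hpd, which oxidises hydroxyphenylpyruvate, had a range of 15.37 to 15.57 over all 6 arrays and a difference of -0.01. Hgd, homogentisate dioxygenase, had a difference of 0.12.

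In tryptophan breakdown all 4 genes had higher means in the probiotic group, with a median of 0.25, though Tdo2 turned to -0.11 with median centring and -0.16 without normalization between arrays. None passed the test. Kynu, the kynureninase, had the largest difference, with 13.37, 12.40 and 12.84 in the high-fat and 13.45, 13.46 and 13.10 in the probiotic samples. Its groups overlapped through high-fat sample 1, and the difference was 0.47 (SE 0.237, adjusted p = 0.732 with limma). With single samples left out the difference of Kynu ran from 0.23 to 0.72, and the median of the pathway from 0.18 to 0.32. Kmo, kynurenine monooxygenase, had 0.35 and Haao, which acts downstream of Kynu, 0.14. For Kynu, Kmo and Haao the lowest of all arrays was high-fat sample 2, which had the smallest Actb gap, and the part of RNA quality was not tested. Tdo2, the dioxygenase that opens the pathway, had 0.01. Its lowest value was that of high-fat sample 1, at 14.90 against 15.33 to 15.74 in the rest.

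Serine and histidine breakdown held the most variable gene of the members, Sds, the serine dehydratase of gluconeogenic liver. Its log2 signal was 7.77, 14.58 and 14.07 in high-fat samples 1, 2 and 3 and 10.01, 12.17 and 12.87 in probiotic samples 1, 2 and 3. In the deposited intensities these are 211.1, 26963.5 and 17429 against 1011.6, 4671.7 and 7548.1. The lowest and the highest of all 6 arrays were thus both controls, 112-fold apart after normalization, and the difference of -0.46 (SE 1.55, adjusted p = 0.961 with limma) was far inside that spread. Sdsl, the related serine dehydratase-like gene, had opposite differences at its probe sets, 0.29 and -0.77. Hal, the histidine ammonia-lyase, had 0.20, with the highest value in probiotic sample 1, at 12.10, and the lowest in probiotic sample 2, at 10.44. Uroc1, the urocanate hydratase that follows it, had 0.31, and its values in the probiotic group were highest and lowest in the same samples, at 14.24 and 13.65.

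The differences in branched-chain breakdown were the smallest of the pathways at the brightest probe sets. Its 6 tested genes differed by -0.27 to 0.03, with 2 higher, 4 lower and a median of -0.04, which was 0.03 with median centring. The largest was that of Mccc2, a subunit of methylcrotonyl-CoA carboxylase, which had 11.33, 11.36 and 11.17 in the high-fat and 11.03, 10.72 and 11.29 in the probiotic samples. The groups overlapped, and the difference was -0.27 (SE 0.195, adjusted p = 0.763 with limma). The partner subunit Mccc1 had -0.19. Of the branched-chain keto acid dehydrogenase, the subunits Bckdha, Bckdhb and Dbt had 0.02, -0.01 and -0.07. The signs of Bckdhb and Dbt turned with median centring. A dim Bckdha probe set gave 1.14, and a Dbt probe set below the filter gave -0.78. Ivd, isovaleryl-CoA dehydrogenase, had 0.03. Bcat2, the aminotransferase that opens this pathway mostly outside the liver, was the only gene with its brightest probe set below the filter. It had 4.80 to 7.44 over the 6 arrays and was not tested.

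The glycine cleavage and lysine genes had the lowest median of the pathways, -0.61, with 3 of 4 lower and none past the adjusted test. Gcsh, the lipoyl-carrying H protein of the glycine cleavage system, had 13.18, 13.06 and 13.02 in the high-fat and 12.91, 12.12 and 12.39 in the probiotic samples. Every probiotic value was below every high-fat value, and the difference was -0.61, or 1.53-fold lower (SE 0.205, adjusted p = 0.726 with limma). The lowest value was in probiotic sample 2, which had the largest Actb gap. The difference was -0.44 without that sample and -0.18 adjusted for the gap. Aass, which opens lysine breakdown, had the largest difference of this pathway, with 13.18, 14.39 and 13.43 against 12.82, 12.61 and 13.50. High-fat sample 2 was high and the groups overlapped, giving -0.69 (SE 0.323, adjusted p = 0.73 with limma), -0.32 without high-fat sample 2 and -0.11 adjusted for the Actb gap. Gldc, the decarboxylase of the system, had -0.60 at its brightest probe set, 0.42 at another and -0.26 at one below the filter. Amt, its aminomethyltransferase, had 0.10. The median of the pathway was -0.01 when adjusted for the Actb gap. As the gap did not overlap between the groups, this value cannot tell RNA quality from treatment.

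**Figure D3:**
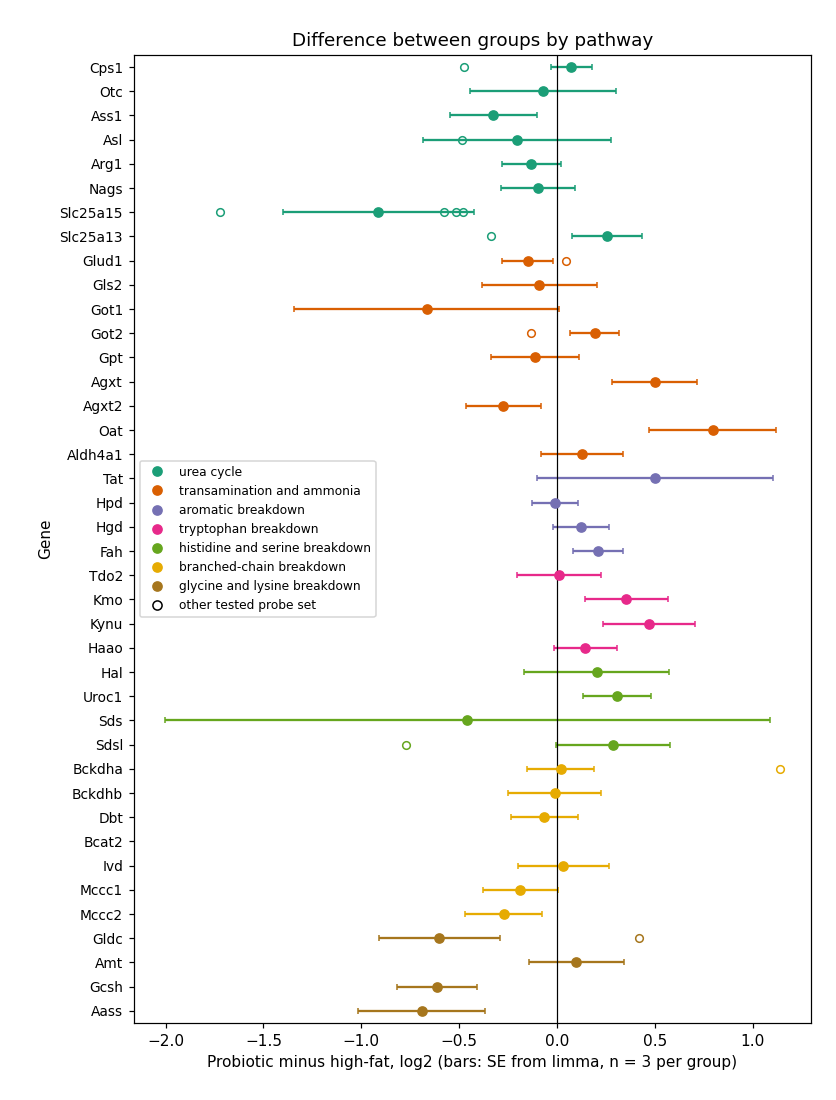
Probiotic minus high-fat difference of each gene on the log2 scale (filled points, brightest probe set; bars, limma SE, n = 3 per group), coloured by pathway; open circles are other tested probe sets, and Bcat2 was below the filter. The bar of Sds is the longest, the largest differences at a brightest probe set are those of Slc25a15 and Oat, and Cps1, Slc25a13, Glud1, Got2, Sdsl and Gldc have probe sets on both sides of 0.

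The extreme values of many members fell on high-fat samples 1 and 2. High-fat sample 1 was the lowest of all 6 arrays for 13 of 39 members (33.3%), beside 13.8% of all genes, and the highest for 1 (2.56%, beside 14%). High-fat sample 2 was the highest for 15 members (38.5%, beside 23.1%). In the urea cycle high-fat sample 1 was the lowest for 6 of 8 genes, namely Ass1, Asl, Arg1, Nags, Slc25a15 and Cps1, and high-fat sample 2 the highest for 5. Cps1 spanned only 0.17 log2 units at this probe set. At its other probe set, and at the Slc25a15 probe set with -1.72, probiotic sample 2 was the lowest. For 11 members (28.2%, beside 18.2% of all genes) all probiotic values lay inside the high-fat range. High-fat sample 1 had an Actb gap of 1.96, the same as high-fat sample 3, and lay in the middle of the leading principal component.

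Of the 39 members, 5 spanned more than 2 log2 units over the 6 arrays (12.8%, beside 10.1% of all genes), and they were singled out after their values were seen. They were Sds at 6.81, Got1 at 3.35, Tat at 2.47, Slc25a15 at 2.24 and Asl at 2.11, followed below that line by Aass at 1.78. In all 5 the order within the high-fat group was the same, with sample 1 lowest and sample 2 highest, which for all of them but Tat are also the arrays that set the range. That order held for 14 of 39 members (35.9%), beside 20.3% of all genes. In all 5 probiotic sample 1 was the lowest of its group. Within the high-fat group the lowest and highest sample differed 112-fold for Sds, 10.2-fold for Got1, 4.72-fold for Slc25a15, 4.33-fold for Asl and 3.29-fold for Tat. Within the probiotic group the same genes differed 7.24-fold, 1.56-fold, 1.23-fold, 2.11-fold and 5.52-fold. At the brightest probe sets the SD was larger in the high-fat group for 7 of the 8 urea cycle genes, with Otc the exception. The same held for 21 of all 39 members (53.8%), beside 50.3% of all genes. The other tested probe sets of Asl and Slc25a15 kept this direction. Those of Cps1 and Slc25a13 reversed it, with SDs of 0.69 and 0.425 in the probiotic and 0.158 and 0.26 in the high-fat group. Otc, Hal, Gpt and Oat were among the members with the larger SD in the probiotic group. Their SDs were 0.883, 0.85, 0.454 and 0.747 in the probiotic and 0.284, 0.239, 0.0613 and 0.254 in the high-fat group. So were Gcsh and Agxt, with 0.4035 and 0.4093 in the probiotic and 0.0869 and 0.107 in the high-fat group.

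**Figure D4:**
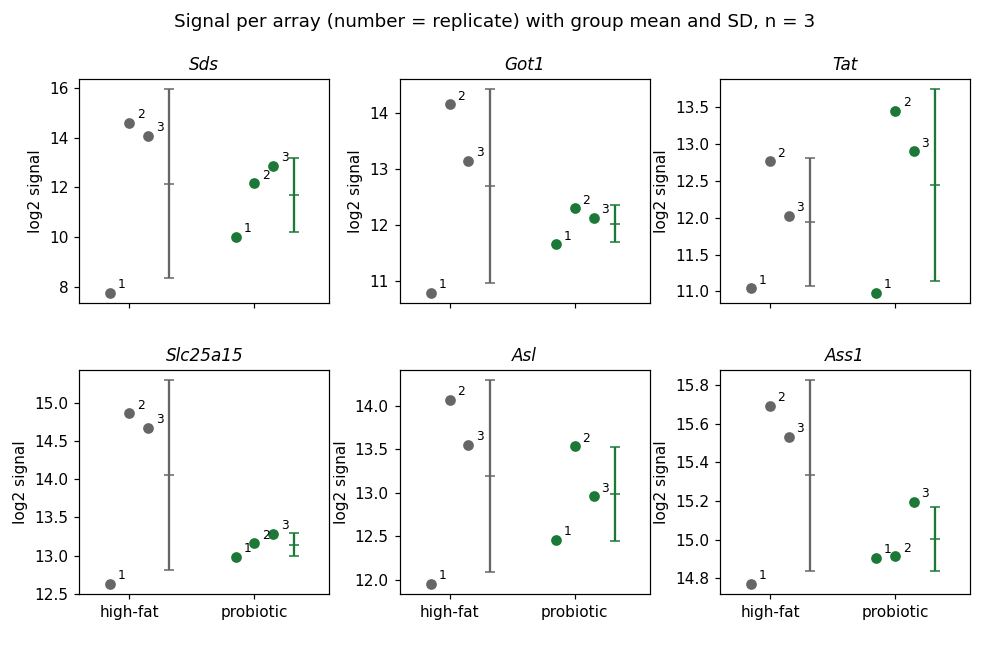
Log2 signal of the 5 widest-ranging members and of Ass1 on each array, labelled by replicate number, with the mean and SD of each group (n = 3). High-fat sample 1 lies below high-fat samples 2 and 3 in all 6 panels, by the most for Sds (7.77 against 14.58 and 14.07).

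**Figure D5:**
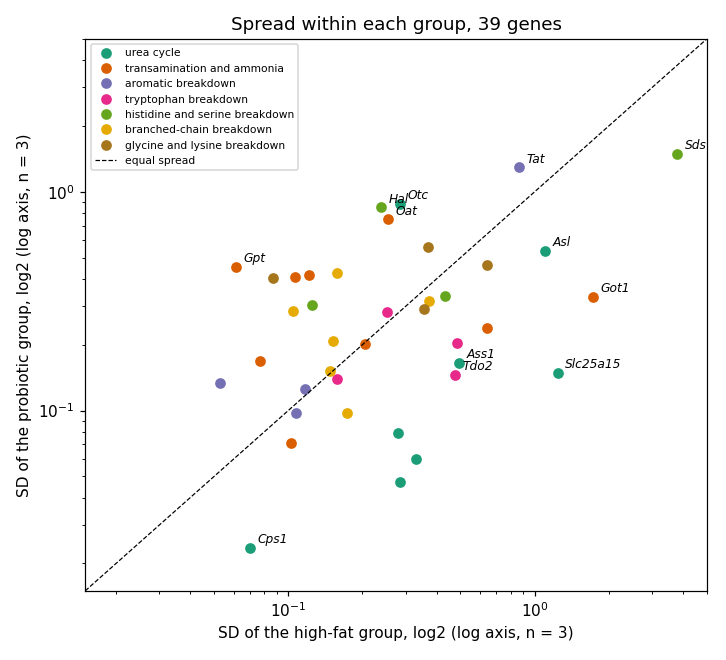
SD of each of the 39 tested genes in the high-fat group (horizontal) and the probiotic group (vertical), n = 3 each, on log axes and coloured by pathway; the dashed line marks equal spread. Sds, Got1, Slc25a15 and Asl lie far to the right and below the line, and Otc, Hal, Oat and Gpt are among the genes above it.

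High-fat sample 1 was the lowest control for Sds, Got1, Slc25a15, Asl, Ass1, Arg1 and Aass and the highest for Kynu, so leaving it out widened the differences of these genes by construction. For Gcsh, whose highest control it was, the difference went from -0.61 to -0.56, and for Tat from 0.50 to 0.05. Without it, 9 of 39 members had an unadjusted p under 0.05 with limma (23.1%, beside 7.95% of all genes in that fit), 8 of them lower in the probiotic group (20.5%, beside 3.68%). The 8 were Arg1, Ass1, Slc25a15, Aass, Asl, Gcsh, Got1 and Sds, and the higher one was Kynu (4.27% of all genes were higher). Slc25a15 then passed the adjusted test, with a difference of -1.65, or 3.14-fold (SE 0.163, adjusted p = 0.0111 with limma), as 1 of 4 genes (0.0383%) and 1 of 9 probe sets (0.0483%) over the whole table. Got1 had -1.62 (adjusted p = 0.216), Sds -2.66 (0.388), Ass1 -0.61 (0.363), Asl -0.83 (0.579) and Arg1 -0.30 (0.61). Without high-fat sample 2 the difference of Slc25a15 was -0.50, that of Got1 0.07 and that of Sds 0.80, and no member passed. The sign for Got1 and Sds thus depended on which control sample was left out.

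The promoters of the widest-ranging members are shown because these genes had the largest differences between arrays. They run from 250 bases before to 50 bases after an annotated transcript start, 5′ to 3′ on the gene's strand, from RefSeq on GRCr8, with windows for 33 of the 40 members and none for Sds. Got1 lies at chr1:252329822-252330121 (minus strand), Slc25a15 at chr16:76336620-76336919 (plus), Asl at chr12:32295658-32295957 (plus) and Tat at chr19:54856354-54856653 (plus). For Tat the start is the first base of the annotated gene. For Got1 (gene at chr1:252306541-252337622), Slc25a15 (chr16:76334037-76357325) and Asl (chr12:32295779-32313257) it lies inside the gene's span, so other starts of these genes are not shown. Capitals mark matches on either strand to any of 6 motifs.
Got1: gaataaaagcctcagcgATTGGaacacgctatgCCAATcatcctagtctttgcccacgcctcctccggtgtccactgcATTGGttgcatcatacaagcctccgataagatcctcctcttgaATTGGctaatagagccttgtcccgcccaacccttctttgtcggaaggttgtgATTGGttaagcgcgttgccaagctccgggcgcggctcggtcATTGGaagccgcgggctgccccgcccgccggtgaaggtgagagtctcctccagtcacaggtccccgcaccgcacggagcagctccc
Slc25a15: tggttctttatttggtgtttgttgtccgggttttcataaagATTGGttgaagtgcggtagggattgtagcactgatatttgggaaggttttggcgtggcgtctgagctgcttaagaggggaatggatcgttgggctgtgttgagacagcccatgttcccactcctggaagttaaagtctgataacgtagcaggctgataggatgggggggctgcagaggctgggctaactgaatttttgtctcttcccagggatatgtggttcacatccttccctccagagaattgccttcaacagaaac
Asl: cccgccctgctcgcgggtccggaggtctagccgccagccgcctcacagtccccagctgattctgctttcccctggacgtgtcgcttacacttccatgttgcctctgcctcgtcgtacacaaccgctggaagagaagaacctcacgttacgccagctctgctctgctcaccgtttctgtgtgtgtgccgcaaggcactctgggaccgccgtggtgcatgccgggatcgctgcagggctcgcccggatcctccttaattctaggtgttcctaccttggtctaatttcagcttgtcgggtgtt
Tat: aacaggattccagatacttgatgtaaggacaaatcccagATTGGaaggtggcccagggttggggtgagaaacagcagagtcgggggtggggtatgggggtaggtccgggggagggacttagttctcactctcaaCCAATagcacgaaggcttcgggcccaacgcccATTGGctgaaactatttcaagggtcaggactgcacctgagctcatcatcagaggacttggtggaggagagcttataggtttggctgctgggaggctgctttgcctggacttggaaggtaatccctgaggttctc
The motifs searched on both strands were the cAMP response element TGACGTCA and its core TGACG, the glucocorticoid receptor core TGTTCT, the C/EBP site TTGCNNAA, the CCAAT box CCAAT and the TATA box TATAAA, where the first contains the second. Only the CCAAT box matched, with 6 matches in Got1, 3 in Tat, 1 in Slc25a15 and none in Asl. It was present in 57.1% of 35 member windows and in 37.5% of 33469 windows of all genes. The response element was in 0 member windows and in 1.83% of all, its core in 14.3% and 21.2%, the glucocorticoid receptor core in 8.57% and 20.7%, the C/EBP site in 14.3% and 10.6%, and the TATA box in 14.3% and 14.2%. A match is only a description of the letters in this window.

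Other genes of amino acid metabolism were read from lists drawn up beside the members. Among 39 tested genes of other breakdown steps, 22 were higher and 17 lower, and 4 had an unadjusted p under 0.05 (10.3%, beside 5.81% of all genes), none past the adjusted test. Prodh2, of hydroxyproline breakdown, had 10.69, 10.57 and 10.82 in the high-fat and 10.93, 11.49 and 11.26 in the probiotic samples, with no overlap and a difference of 0.53. The cysteine-forming enzyme Cth had 0.53, the amino acid oxidase Dao 0.62 and Csad, of taurine synthesis, -0.30. Of 8 tested genes around ammonia and polyamines, 3 were higher and 5 lower and none had a p under 0.05. The smallest p values there were those of the ornithine decarboxylase Odc1 (-0.44), Ddah1 (0.40), Aspg (-0.46) and asparagine synthetase Asns (-0.74). For Asns, high-fat sample 1 was the high one, at 10.61 against 8.00 to 8.85 in the other 5 arrays, the reverse of its place in the urea cycle.

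Amino acid transporters included 4 of 18 tested genes with an unadjusted p under 0.05 (22.2%), all lower in the probiotic group (3.05% of all genes were), and none passed the adjusted test. All 4, which this p had picked, had groups that did not overlap. So did another transporter, which was lower with an unadjusted p of 0.0953 with limma. Over all genes tested, 6.42% were lower in the probiotic group without overlap. Slc7a7, a light chain of a cationic amino acid exchanger that is also active in macrophages, had 8.08, 8.21 and 8.52 against 7.36, 7.29 and 7.41, a difference of -0.92 (SE 0.263, adjusted p = 0.726 with limma). Kupffer cell and macrophage markers were lower in the same samples, with a median difference of -0.40, and their part in this value was not tested. The aspartate and glutamate carrier Slc25a12 had -0.91, the glutamine transporter Slc38a3 -0.50 and the heavy chain Slc3a2 -0.55. The transporters as a whole were 6 higher and 12 lower, with a median of -0.08.

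The list of regulators known to act on these genes also held Pck1, an enzyme of glucose synthesis, which was higher. Of the 17 tested genes of this list, 14 had a higher mean in the probiotic group (82.4%, beside 51.4% of all genes), with a median of 0.28. None passed the adjusted test, and 1 had an unadjusted p under 0.05 (5.88%, beside 5.81% of all genes). Foxo1, a transcription factor of the fasting liver, had 9.36, 9.14 and 9.48 against 9.58, 11.07 and 11.28. Probiotic samples 2 and 3 were high, the groups did not overlap, and the difference was 1.32 (SE 0.398, adjusted p = 0.726 with limma), but another Foxo1 probe set gave 0.07. The Actb gap was also largest in these samples, at 3.01 and 2.38, and its part in this value was not tested. The hepatic factor Creb3l3 had 0.34, the glucocorticoid-responsive factor Klf15 0.56 (0.10 at another probe set) and the nuclear receptor Hnf4a 0.28 (-0.61 and -0.39 at other probe sets). Of the periportal genes, 6 were higher and 5 lower with a median of 0.04, and of the pericentral genes 6 higher and 3 lower with a median of 0.02. Both lists hold members of the pathways above, the periportal list 8 of its 12 and the pericentral list Oat. Outside the members the smallest p values were those of Pck1 (0.46) and Cdh1 (0.40) among periportal genes and of Tbx3 (-0.80), Cyp1a2 (0.14) and Axin2 (0.25) among pericentral ones, of which Tbx3 alone had an unadjusted p under 0.05.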

How the data were processed

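The members and gene lists were chosen with earlier results of these data known. Per the labels' protocols, liver RNA was made into biotin-labelled cRNA for 1-colour Affymetrix arrays. The values the authors deposited are linear intensities, 1 for each probe set on each array. The software that made them is not given in the sources used here, and they showed a global scaling, with equal means after trimming 2% at each end. This leaves the shape of the distributions unequal, so log2(intensity + 16) was quantile normalized here, which removes any overall difference in signal. Genes came from the platform annotation, and all 40 members matched the RefSeq table of GRCr8 by gene identifier. The 57 control probe sets were left out, and probe sets at or above the 40th percentile of mean signal were tested with limma 3.58.1 in R 4.3.3 (lmFit, eBayes with intensity trend, two-sided, Benjamini-Hochberg adjustment, threshold 0.05). A fold comes from the log2 difference and understates changes of dim probe sets. Precision is limited by 3 arrays a group.

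Named genes follow a rule: every member is named. All arrays are given for members with an unadjusted p under 0.05, without overlap, with the largest difference of a pathway or from the core urea cycle; Sds, Got1, Tat and Slc25a15 were added for their range after their values were seen. Other probe sets are given where the sign differs or the difference is over 0.5 away (all for Slc25a15 and Asl, chosen after seeing them), and up to 4 genes of smallest p from each other list. Scripts were tested on simulated data. Alternatives covered normalization, filter, pseudocount (1 and 64), variance model, weights for arrays, a block on the replicate number, the Actb gap as a covariate, left-out samples and the probe set rule; those of the Actb gap itself were added after seeing the data. Figures were drawn with matplotlib 3.10.9.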

Additional observations from a re-analysis of the deposited data

How the results depend on the processing

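Each of the 39 tested members was recomputed under 17 alternatives. Of 663 such differences, 600 kept their direction and side of the threshold, 62 changed sign and 1 passed the threshold, which was Slc25a15 without high-fat sample 1 (adjusted p = 0.0111 with limma). No sign changed for 16 members. The cause of a change of sign was not tested.

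With median centring the sign changed for Cps1 (-0.0453), Tdo2 (-0.113), Bckdhb (0.0497) and Dbt (0.00338), and without normalization between arrays for Cps1 (-0.0932), Tdo2 (-0.161) and Bckdhb (0.00179). With array weights it changed for Otc (0.0251), Gls2 (0.00602), Hpd (0.00377), Tdo2 (-0.0129), Bckdha (-0.0222) and Bckdhb (0.143). Adjusted for the Actb gap, it changed for Otc (0.849), Arg1 (0.0176), Nags (0.0766), Glud1 (0.0257), Gls2 (0.41), Tat (-0.434), Bckdhb (0.262), Dbt (0.0345), Mccc1 (0.00333), Mccc2 (0.00275) and Gldc (0.0851). Without both sample 2 arrays it changed for Otc (0.268), Nags (0.0496), Gls2 (0.303), Sds (0.541), Bckdhb (0.196), Dbt (0.000874) and Ivd (-0.0117).

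With single samples left out, the differences that changed sign ranged from -0.449 to 0.419 for Otc, -0.829 to 0.238 for Asl, -0.252 to 0.0261 for Nags, -0.455 to 0.168 for Gls2, -1.62 to 0.0697 for Got1, -0.314 to 0.133 for Gpt and -0.0572 to 0.357 for Aldh4a1. They ranged from -0.00242 to 1.23 for Tat, -0.0673 to 0.0468 for Hpd, -0.277 to 0.149 for Tdo2, -0.269 to 0.559 for Hal and -2.66 to 0.797 for Sds. For Bckdha they ran from -0.0675 to 0.0962, for Bckdhb from -0.248 to 0.162, for Ivd from -0.182 to 0.204 and for Amt from -0.0821 to 0.274.

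The median difference of the members was 0.119 with that covariate, 0.102 without both sample 2 arrays and -0.0535 to 0.0858 with single samples left out. For transamination and ammonia it was 0.00602 with array weights, 0.149 with the covariate, 0.186 without both sample 2 arrays and -0.142 to 0.0697 with single samples left out. With the covariate the median was 0.0477 for tyrosine breakdown and -0.0108 for glycine and lysine breakdown, and the latter was -0.187 without both sample 2 arrays. The count of members at an unadjusted p under 0.05 was 1 with eBayes without trend (4.5% of all genes) and without both sample 2 arrays (3.49%), and 1 to 9 with single samples left out (3.58% to 7.95%). The count of member probe sets past the adjusted test was 0 to 1 with single samples left out and 0 in the other settings. Over all probe sets the unadjusted count was 1989 without the filter, 443 with the covariate, 703 without both sample 2 arrays and 795 to 1772 with single samples left out, and the adjusted count was 3 to 12 in the latter.

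With the replicate number as a block, 6 members had an unadjusted p under 0.05 (7.23% of all genes did), Slc25a15, Kynu and Tat being added to Oat, Agxt and Gcsh, and none passed the adjusted test. The numbers were not taken to pair the samples, since deviations from the group means correlated at 0.144, 0.027 and 0.0774 for numbers 1, 2 and 3, and 5 of 6 samples correlated best with their own number, a hint from the data and not from the design. Dim probe sets such as that of Bcat2 and differences below about the SE of 0.1 to 0.7 typical of these genes were beyond what 3 arrays a group resolve.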
